A study of Homo sapiens with 16 samples.

Results

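SMAD2/3 binding after TGFB1 was set against SMAD2/3 binding in vehicle in the human melanoma line A375, an established cell line, by chromatin immunoprecipitation and sequencing. The sites are the peaks that the authors called in each library on chromosomes 1 to 22 and X, with identical intervals counted once. They came to 11302 sites with TGFB1 and 1175 in vehicle, of 399028 distinct intervals in the 10 peak lists of the series. Both groups were starved for 2 h. The TGFB1 group then received the ligand at 10 ng/mL for 2 h, and the vehicle group received 4 mM HCl with 1 mg/mL BSA for the same time. Chromatin was sheared to 200 to 300 bp and incubated with 10 µg of an antibody that recognises SMAD2 and SMAD3 together. Each group had 1 library from 1 line, so the differences below have no replicate to check them and no p-value was computed. Intervals are 95% Wilson intervals over sites and cover counting error only.

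SMAD2 and SMAD3 are the transcription factors that carry the TGF-beta signal from the cell surface to the genome. The ligand assembles a receptor pair, the type I receptor phosphorylates SMAD2 and SMAD3, and these join SMAD4 and enter the nucleus. SMAD complexes bind DNA weakly through short motifs such as CAGAC and GC-rich elements, and commonly sit beside other factors, including those of the AP-1 family. In melanocytic cells the pathway is known for restraint of the pigment programme and for matrix and cytoskeletal genes, and its targets include inhibitors of the pathway itself.

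A TGFB1-only site is one that overlaps no vehicle site by even 1 bp. The sequences here are the upstream parts of promoters that had a strong TGFB1-only summit inside them and hold at least 1 of the motifs marked. They are given 5′ to 3′ on the strand of the gene, ending at the base before the annotated start, from RefSeq on GRCh38.p14. Capitals mark CAGAC (or its complement GTCTG), a SMAD motif, and TGANTCA, an AP-1 motif. Both strands were searched, and neither motif contains the other. TAGLN2 encodes transgelin-2, an actin-binding protein, and its promoter window had the highest −log10 p of all such windows. NDST1 encodes an enzyme of heparan sulphate synthesis, and KCNMA1 a calcium-activated potassium channel. TGIF1, a co-repressor of SMAD complexes, was added after its values had been seen.
TAGLN2, chr1:159924596-159924845, minus strand: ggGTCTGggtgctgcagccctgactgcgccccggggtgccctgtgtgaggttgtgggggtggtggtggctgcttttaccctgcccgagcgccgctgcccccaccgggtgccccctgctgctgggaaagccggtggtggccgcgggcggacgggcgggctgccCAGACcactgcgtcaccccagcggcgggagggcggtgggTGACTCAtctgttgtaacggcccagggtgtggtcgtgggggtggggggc
NDST1, chr5:150497529-150497778, plus strand: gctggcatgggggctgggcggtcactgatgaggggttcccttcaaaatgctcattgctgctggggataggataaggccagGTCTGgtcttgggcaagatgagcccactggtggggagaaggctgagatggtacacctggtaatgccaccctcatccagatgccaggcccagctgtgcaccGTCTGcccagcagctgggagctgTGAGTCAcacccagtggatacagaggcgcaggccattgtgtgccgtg
KCNMA1, chr10:77350762-77351011, minus strand: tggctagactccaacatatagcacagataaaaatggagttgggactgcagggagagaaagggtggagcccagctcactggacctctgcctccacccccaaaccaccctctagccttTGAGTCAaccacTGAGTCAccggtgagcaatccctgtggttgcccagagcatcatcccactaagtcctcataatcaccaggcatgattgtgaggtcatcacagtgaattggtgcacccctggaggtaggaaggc
TGIF1, chr18:3449318-3449567, plus strand: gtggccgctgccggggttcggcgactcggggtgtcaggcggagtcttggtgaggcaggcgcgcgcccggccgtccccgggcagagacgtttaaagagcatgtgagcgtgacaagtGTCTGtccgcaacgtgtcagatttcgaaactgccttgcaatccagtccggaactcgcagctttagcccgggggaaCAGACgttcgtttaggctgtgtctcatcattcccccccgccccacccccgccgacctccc
The TAGLN2 summit lay 88 bases upstream of the start, with 108 reads over a local background of 2.63 reads. The NDST1 summit lay 53 bases upstream with 63 reads, the KCNMA1 summit 107 bases upstream with 58 reads, and the TGIF1 summit 74 bases upstream with 44 reads. The vehicle list holds no peak at any of the 4. ENAH, PRUNE2 and USP3, the other promoters that the naming rule selects, hold neither motif in the same 250 bases and are not printed. ENAH and PRUNE2 had a higher −log10 p (59.7 and 56.5) than NDST1 and KCNMA1 (54.4 and 51.1). The printed set therefore does not show how common the motifs are. Matches of this kind describe the letters only.

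Reads and local background at each summit were recovered from the authors' fold enrichment and −log10 p. Both values are those of the authors' peak caller and describe sites within their own list. The recovered values gave the deposited −log10 p within 0.001 at 11299 of 11302 TGFB1 sites and at 1175 of 1175 vehicle sites. The median summit held 17 reads (5 to 366) in the TGFB1 list and 35 reads (8 to 612) in the vehicle list. The shortest sites were 183 bp and 311 bp, so the authors' reads were extended to different lengths, and equal reads at a summit do not mark equal signal. As a check of the line, vehicle H3K27ac, a histone acetylation found on active regulatory elements, lay within 1 kb of 5 of 9 melanocytic genes (SOX10, MITF, PAX3, TFAP2A and PMEL). It was absent from MLANA, TYR, TYRP1 and DCT, and lay at 3 of 10 genes of other cell types (CD3E, GFAP and KRT14).

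After TGFB1, SMAD2/3 was found at far more places, and nearly all of them lacked a vehicle site. Of the TGFB1 sites 94.8% (94.4 to 95.2%) were TGFB1-only, and of the vehicle sites 51.5% (48.6 to 54.3%) were vehicle-only. The vehicle list was concentrated where there are no genes. The longest gene-free stretch of each chromosome, which usually spans the centromere, held 712 vehicle sites (60.6% of that list) and 3.32% of the TGFB1 list. Outside those stretches the lists held 463 and 10927 sites, of which 21.4% of the vehicle sites and 96.6% of the TGFB1 sites lacked a partner. The 10557 TGFB1-only sites outside the stretches are the main subject from here on. Their median summit held 16 reads (5 to 223), against 8 reads at the lowest and 23 at the median vehicle summit outside the stretches. Of the TGFB1-only sites 10353 (98.1%) had at least 8 reads and 2665 (25.2%) at least 23. Read extension differed between the lists and local background differs between sites. These shares therefore do not tell how many of the sites could have been called in vehicle.

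Sites were dense at gene starts, and less so among strong sites. Of the TGFB1-only sites outside gene-free stretches, 2375 (22.5%, 21.7 to 23.3%) lay within 1 kb of the start of a protein-coding gene, in 1.80% of the bases. Gene bodies held 3701 sites (35.1%) in 42.9% of the bases. A further 842 (7.98%) lay outside genes within 10 kb, in 7.14% of the bases. The remaining 3639 (34.5%) lay farther away, in 48.2% of the bases. The median fold enrichment was 4.65 at starts, 6.23 in gene bodies and 6.26 beyond 10 kb, while median reads were 17, 16 and 16. Local background was higher at starts, with a median of 2.85 reads against 1.64 in gene bodies.

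When the TGFB1 list was divided into 5 equal groups by −log10 p, the share at gene starts was 34.2% in the weakest group, then 26.9%, 23.0% and 14.7%, and 9.55% (8.41 to 10.8%) in the strongest, still above the 1.80% of bases there. The share beyond 10 kb was 31.2% in the weakest group and 44.2% (42.2 to 46.3%) in the strongest. Sites also present in vehicle made up 2.65% of the weakest group, 11.5% of the strongest group and 35 of the 100 strongest sites. These groups include gene-free stretches. There lay 218 of the 588 shared sites of the list, with a median local background of 17.6 reads. Around starts with a known strand, 709 summits lay in the first 250 bases downstream and 568 in the 250 bases upstream. Between 1 and 5 kb there were 308 upstream and 322 downstream, which is 7.70 and 8.05 sites per 100 bp. Of the 1983 summits within 1 kb, 44.8% (42.6 to 47.0%) were upstream, and the median lay 34 bases downstream of the start.

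**Figure D1:**
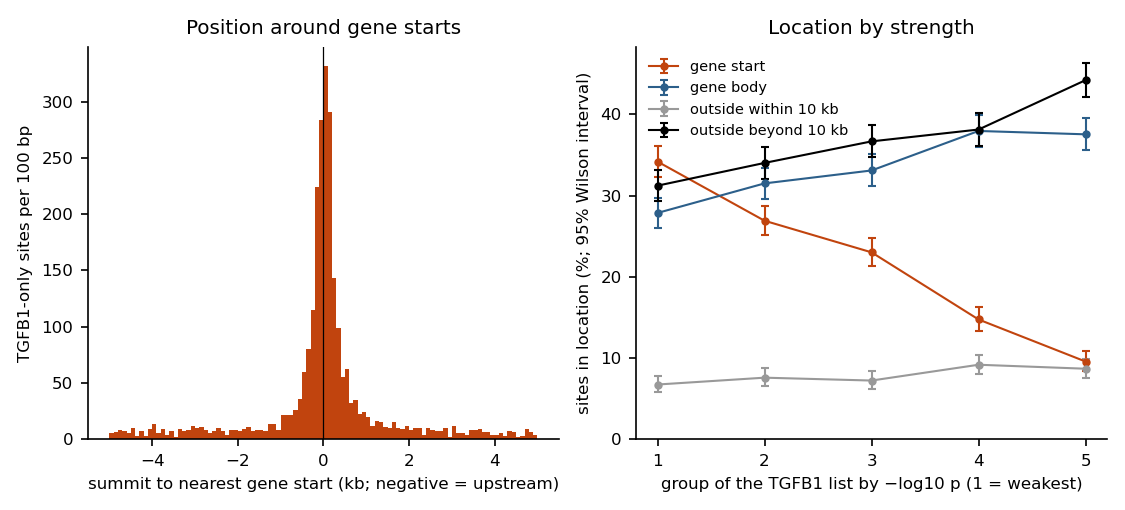
The left panel plots TGFB1-only SMAD2/3 sites per 100 bp by distance of the summit from the nearest gene start in kb, negative upstream. The right panel plots the percent of sites in each location for 5 equal groups of the TGFB1 list by −log10 p, with 95% Wilson intervals; the gene start share is 34.2% in the weakest group and 9.55% in the strongest.

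The 5 TGFB1-only sites of highest −log10 p at gene starts were at genes of unlike function. The TAGLN2 site (chr1:159924427-159925268) had a fold enrichment of 30.1. At DHRS3, a retinaldehyde reductase, the site (chr1:12595642-12596676) held 103 reads, 0.521 kb from the start. CYP1B1, a cytochrome P450, had 97 reads at 0.929 kb. MYEOV, named for its overexpression in myeloma, had 83 reads at 0.174 kb, and ITGB2, the beta-2 integrin subunit, had 74 at 0.127 kb. All 5 lay on H3K27ac of both treatments. JUNB of the TGFB1 library lay at 4 of them, with CYP1B1 as the exception.

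Inside genes and away from starts, WNT9A, a Wnt ligand, held 121 reads at chr1:227934715-227935517, and NFATC2, a calcium-regulated transcription factor, held 132 at chr20:51425286-51425975. AOPEP, an aminopeptidase gene, held 110 reads at chr9:95091976-95092995. This AOPEP site carried H3K27ac with TGFB1 and not in vehicle, whereas the WNT9A and NFATC2 sites carried it in both. Just outside genes, LTBP2, a latent TGF-beta binding protein family member, had 89 reads 7.58 kb away at chr14:74619336-74620249. The strongest distant site lay 294 kb from TRIML1, the nearest gene, at chr4:188444610-188445660 with 181 reads. A second TGFB1-only site with 160 reads (chr4:188405090-188405813) lay in the same gene-poor region. Directly beyond the first lay a site called in both lists (chr4:188445845-188449216), with 264 reads with TGFB1 and 34 in vehicle.

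Chromatin marks differed by location. Vehicle H3K27ac overlapped 97.5% of TGFB1-only sites at gene starts, 67.8% in gene bodies, 73.2% within 10 kb and 62.1% (60.5 to 63.6%) beyond. JUNB of the TGFB1 library, an AP-1 transcription factor, was at 49.3% (47.3 to 51.3%) of sites at starts, 65.6% in gene bodies, 69.4% within 10 kb and 69.6% (68.0 to 71.0%) beyond. ATF3, another factor of the AP-1 superfamily, overlapped 28.2% at starts and 52.8% beyond 10 kb. MITF, the pigment lineage factor, overlapped 14.5% at starts, 7.67% in gene bodies and 11.5% beyond 10 kb. H3K27ac present with TGFB1 and not in vehicle marked 0.842% of sites at starts, against 10.6% in gene bodies and 11.3% beyond 10 kb. With vehicle H3K27ac already at 97.5% of sites at starts, few sites there were left that could gain it. The 3 shares therefore do not show that acetylation was gained less readily at starts. JUNB present with TGFB1 and not in vehicle marked 24.8% at starts against 14.5% in gene bodies. Vehicle JUNB was already at 27.8% of sites at starts and 52.4% in gene bodies, so fewer sites in gene bodies were left that could gain it. Mark lists differ in length and depth, JUNB, ATF3 and MITF carry other experiment dates than SMAD2/3, and the part of these in the shares was not tested.

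Promoter sequence was compared over windows of 250 bases before to 50 after each start. A TGFB1-only summit lay in 850 windows of 786 genes. The AP-1 motif TGANTCA was present in 9.53% (7.73 to 11.7%) of them, in 4.23% (3.90 to 4.60%) of 12588 windows with vehicle H3K27ac and no TGFB1 summit, and in 6.16% of all 22011 windows. The E-box CACGTG, which MITF and related factors can bind, was in 14.5% (12.3 to 17.0%), 9.68% and 8.32%. CAGAC was in 44.5% (41.2 to 47.8%), 42.0% and 44.9%, and so was about as common in all 3 sets. GGCGC, a GC-rich SMAD motif, was in 87.3%, 77.8% and 60.0%, while median GC content was 72.3%, 66.0% and 62.3% in the same order. The palindrome GTCTAGAC was in 1 of the 850 windows and in 0.218% of all windows. No motif here contains another, all were searched on both strands, and the part of GC content in these shares was not tested.

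Sites per gene differed between chromosomes. Per 100 protein-coding genes there were 54.8 TGFB1 sites outside gene-free stretches, and 2.32 vehicle sites. Chromosome 13 had the most with 86.9 (292 sites over 336 genes), followed by chromosome 21 with 81.1 and chromosome 9 with 71.1. Chromosome 19 had 27.2 (395 sites over 1451 genes) and X had 27.7. In vehicle, chromosome 21 had 8.40 per 100 genes and no other chromosome exceeded 3.70. Many of the chromosome 21 sites in both lists lay in ribosomal RNA arrays: the interval from 8 to 9 Mb held 54 TGFB1 and 16 vehicle sites, of 193 and 20 on the chromosome. The scale is genes and not bases, although 34.5% of the TGFB1-only sites lay beyond 10 kb of a protein-coding gene. The order per base was not computed, and the part of gene density in the order given was not tested. Copy number of the line was not measured here, and its part in these counts was not tested.

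**Figure D2:**
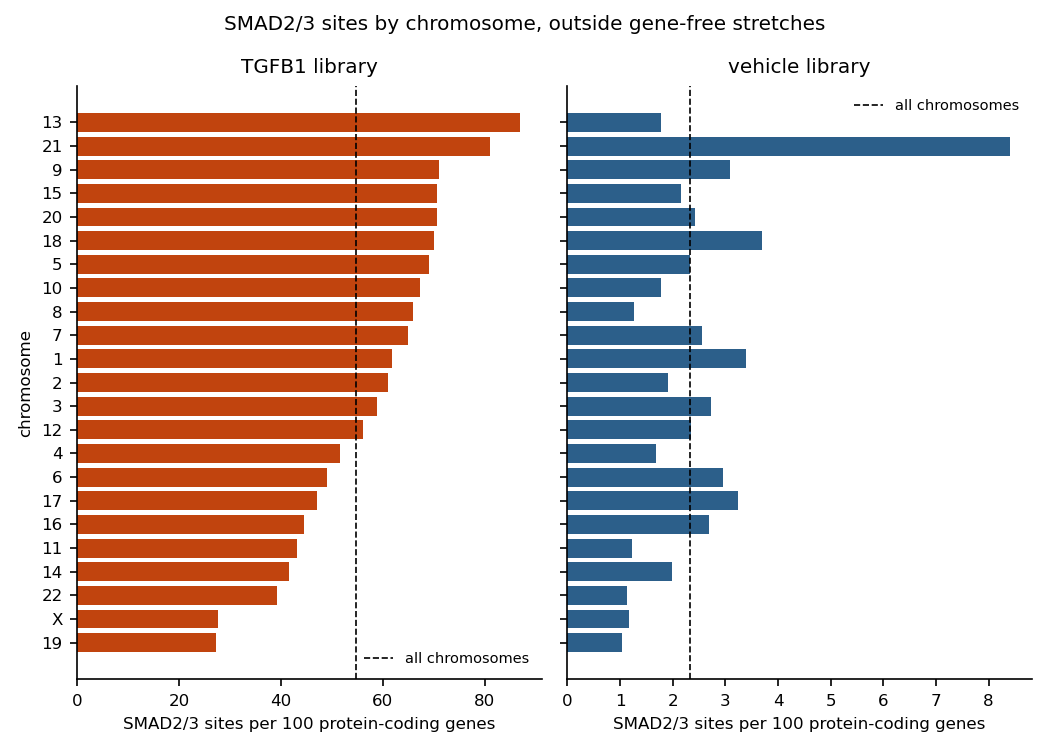
Bars give SMAD2/3 sites per 100 protein-coding genes on each chromosome outside gene-free stretches, with TGFB1 on the left and vehicle on the right, and dashed lines for all chromosomes (54.8 and 2.32). The horizontal scales differ; chromosome 13 is highest with TGFB1 and chromosome 21 in vehicle.

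The sites found in both lists were of unlike kinds. Of the 370 TGFB1 sites outside gene-free stretches that overlapped a vehicle site, 49 (13.2%, 10.2 to 17.1%) lay on small structural RNA genes, against 84 of 10557 TGFB1-only sites (0.796%, 0.643 to 0.984%). A further 33 had a local background of 10 reads or more, 181 lay on vehicle H3K27ac and 107 had none of these features. The small RNA genes make the RNA parts of the spliceosome, the ribosome and other particles. Of 151 small nuclear RNA genes 45 had a TGFB1 site and 22 a vehicle site, and of 443 transfer RNA genes 40 and 13.

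At the strongest small RNA genes the 2 lists held nearly the same reads. RN7SL1, the RNA of the signal recognition particle, had 220 reads with TGFB1 and 224 in vehicle, and its copy RN7SL2 had 214 and 212. RN7SK, which holds the elongation factor P-TEFb inactive, had 208 and 202. RPPH1 (the RNase P RNA) had 130 and 138, and RMRP (the RNase MRP RNA) 138 in both. None of these 5 sites overlapped H3K27ac, and all overlapped JUNB of the TGFB1 library. RN7SL1 and RN7SL2 are near-identical copies, so reads between them could be split.

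At the acetylated shared sites named here the reads in the lists were far apart. They were chosen by high −log10 p in the TGFB1 list or after their values had been seen. That choice favours many TGFB1 reads, so they do not stand for all acetylated shared sites. AXL, a receptor tyrosine kinase of dedifferentiated melanoma, had 168 reads with TGFB1 and 22 in vehicle 0.520 kb from its start (chr19:41225723-41226605). A site 2.96 kb outside HES1, a Notch-responsive repressor (chr3:194140688-194142164), had 125 and 14. S100A2, a calcium-binding protein gene, had 178 and 31, and AHRR, the repressor of the aryl hydrocarbon receptor, had 142 and 23. SKIL, a SMAD co-repressor, had 101 and 38. Over the 181 acetylated shared sites the median ratio of TGFB1 to vehicle reads was 1.29 (0.382 to 8.93). A ratio of at least 5 was found at 15 of them and a ratio under 1 at 64. Over the 49 small RNA sites the median ratio was 1.16 (0.583 to 1.83), and over the 33 high-background sites 0.806 (0.393 to 1.49). Neither of these 2 kinds held a site with a ratio of 2 or more, against 47 of the acetylated sites and 10 of the 107 with none of the features. These ratios were not scaled for read extension or depth, so 1 is not a point of no change.

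**Figure D3:**
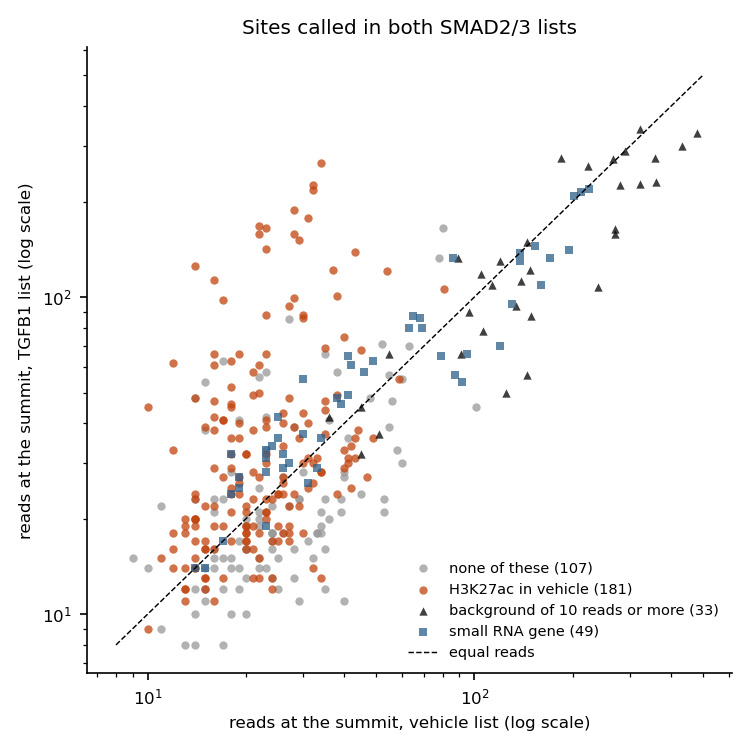
Each point is a TGFB1 site that overlaps a vehicle site outside gene-free stretches, with reads at the vehicle summit on the horizontal and at the TGFB1 summit on the vertical axis, both on log scales, by kind of site. Small RNA genes and high-background sites stay near the dashed line of equal reads. Of 181 acetylated sites, 15 reach 5 or more times as many reads in the TGFB1 list and 64 lie below the line.

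Few strong sites were found in vehicle alone. Outside gene-free stretches there were 99, with a highest fold enrichment of 7.70, and 39 of them lay on vehicle H3K27ac. A single interval of chromosome 16 between 34 and 35 Mb held 9 of the 99, among them the site of highest −log10 p (39.9). Most of these 9 had a local background of 117 to 151 reads and a fold enrichment of 1.49 to 2.33. The acetylated ones of highest −log10 p lay 18.6 kb from WDR5, a subunit of histone methyltransferase complexes, and 4.06 kb from HLA-F, a non-classical antigen presentation gene. Each had 26 reads.

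Some genes had many sites. Sites were joined into clusters where the gap between neighbours was no longer than the stitching distance commonly used for super-enhancers, which lies between the 5 and 25 kb tried as alternatives. The TGFB1 list held 433 clusters of at least 3 sites, and 418 outside gene-free stretches. The vehicle list held 9 outside those stretches. Of the 418, 372 (89.0%) held no vehicle site. Of all TGFB1 sites outside the stretches 96.6% overlapped no vehicle site, but that share is per site. A cluster has at least 3 sites that could overlap one, so the shares are not comparable and no difference is read from them. At least 1 site on vehicle H3K27ac was present in 405 of the 418 clusters. TGFB1-only sites in clusters lay on vehicle H3K27ac more often than the rest (84.9%, 83.0 to 86.6%, against 70.9%, 70.0 to 71.9%). They lay at gene starts less often, at 17.5% (15.7 to 19.5%) against 23.3% (22.5 to 24.2%), and their median fold enrichment was 5.71 against 5.83. The members of a cluster share a locus and are not independent of each other.

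The clusters with most sites were partly arrays of repeated genes. The cluster nearest CCDC200 (chr17:43233317-43300382) had 19 sites on an array of U2 small nuclear RNA genes that includes RNU2-1, 13 of them also in vehicle. A 5S ribosomal RNA array at RHOU (chr1:228610123-228646467) had 17, with 4 shared, and the median local background there was 18.4 reads. Ribosomal RNA arrays on chromosome 21 had 17 and 13. A transfer RNA cluster 34.3 kb from FCGR2A had 11, with 7 shared. An array 193 kb from PLS3 on X, where the DANT1 and DANT2 transcripts of the DXZ4 tandem repeat lie (chrX:115844064-115888509), had 16 sites, none shared, and all 16 lay on vehicle H3K27ac. Its median background was 9.43 reads. Reads from near-identical repeats cannot be placed with certainty, so the number of sites there is uncertain.

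TGFBI, a matrix protein gene named for its induction by TGF-beta, had the largest cluster without such an array that is named here, with 11 sites over 64.8 kb (chr5:135993761-136058573) and no vehicle site. From the upstream end to the downstream end the summits held 60, 33, 30, 27, 17, 71, 20, 24, 28, 22 and 15 reads. The summits of 60 and 71 reads stood above the rest and lay 34.9 and 8.40 kb upstream of the gene, with fold enrichments of 27.7 and 30.5. All 11 lay on JUNB, and 10 of 11 on vehicle H3K27ac.

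Other clusters, chosen after their values had been seen, lay at an inhibitor of the pathway and at cytoskeletal and immediate-early genes. SMAD7, which blocks the type I receptor, had 9 sites over 37.8 kb (chr18:48922753-48960547) with 17, 18, 19, 27, 12, 12, 11, 38 and 8 reads in order of position. The strongest of these by reads lay 1.34 kb outside the gene, and 1 site of 12 reads was also in vehicle. ANXA2, a calcium-dependent membrane and actin-binding protein, had 10 sites over 32.6 kb (chr15:60366147-60398749). They held 12 to 72 reads, and 1 was shared. Next to the early-response gene IER3, 9 sites covered 46.6 kb (chr6:30741808-30788369), all on vehicle H3K27ac. LMNA, which encodes nuclear lamins A and C, had 8 sites of 14 to 55 reads and none in vehicle. LTBP3, whose product holds latent TGF-beta, lay in a cluster of 8 sites of 17 to 31 reads. It was the nearest gene to 5 of them, and the others lay at the starts of FAM89B and EHBP1L1.

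**Figure D4:**
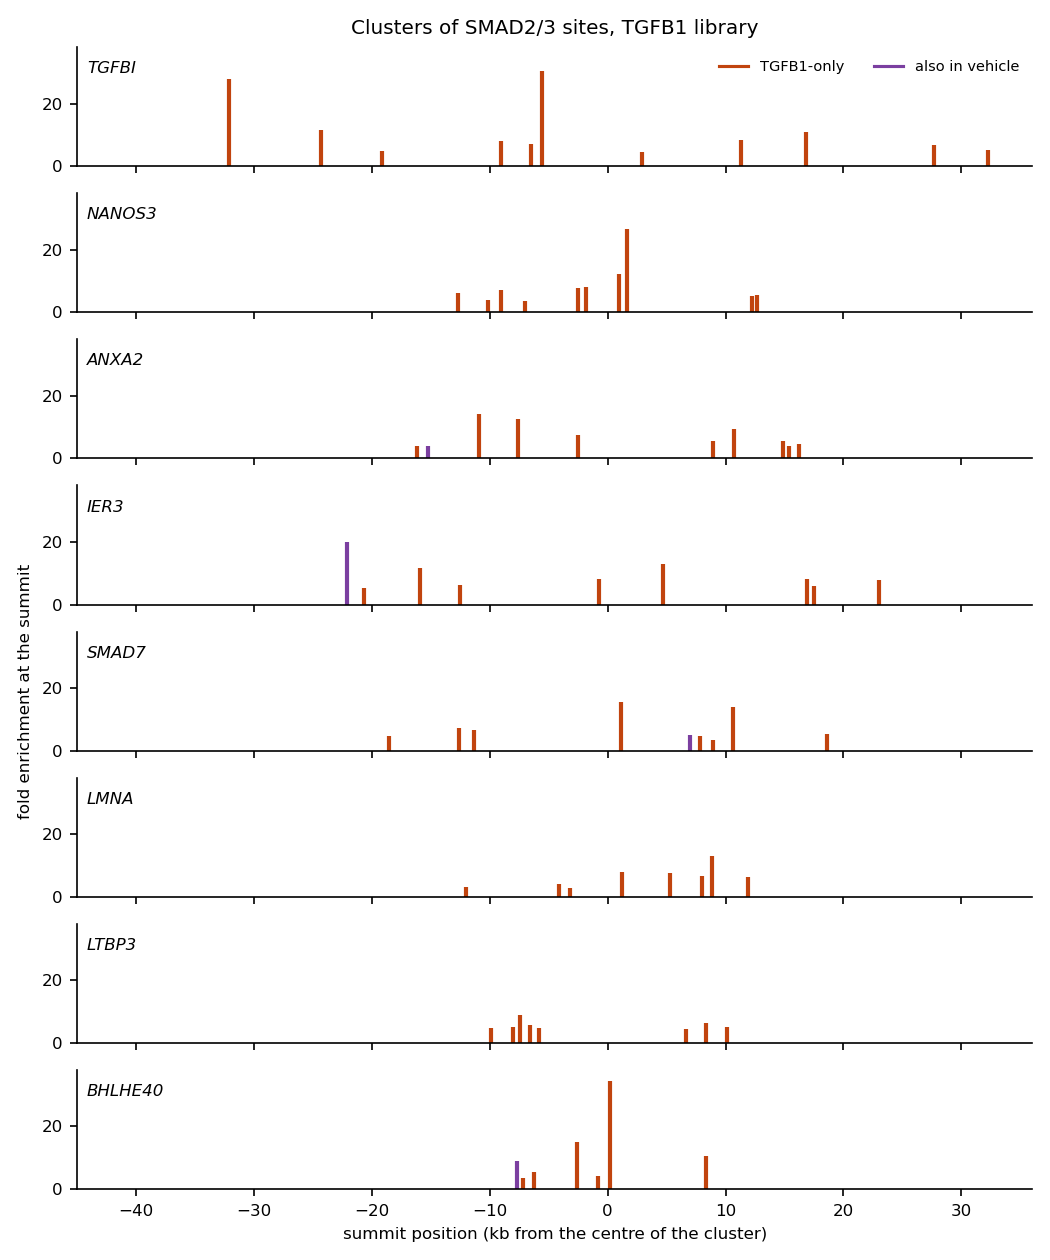
Vertical lines mark SMAD2/3 summits of the TGFB1 library in 8 clusters by distance from the cluster centre in kb, and their height is the fold enrichment; colour shows whether the site was also in vehicle. TGFBI spans 64.8 kb with 2 summits near 30-fold, while the LTBP3 and SMAD7 sites are lower and closer together.

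Counted per gene, 28.2% of 19938 protein-coding genes had a TGFB1 site in the body or within 10 kb, 1.78% had a vehicle site, and 26.7% had a TGFB1 site and no vehicle site. Genes with 5 or more TGFB1 sites were 0.933%. Several of the genes with most sites were long: AOPEP, HIVEP3 (a zinc finger transcription factor) and TENM3 (a teneurin adhesion protein) had 12 each over 424, 530 and 1355 kb. ZNF469 had 11, and VMP1 (an autophagy protein) and IGF1R (the receptor of insulin-like growth factor I) had 10 each. None of the sites of these 6 genes was shared with vehicle, whereas ANXA2, also with 10, had 1 shared site. Not every gene with that many sites is named. Among genes under 20 kb, the repressor BHLHE40 and the AP-1 gene JUNB had 7 each and MIDN (midnolin) had 7. IER2 and IRF2BPL had 6 each.

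The genes of the pathway itself were then counted by role. Each count reads against the 28.2% and 1.78% over all genes. The lists differ in gene length, with medians from 4.54 to 87.0 kb beside 24.2 kb over all genes, and longer genes offer more room. Of 15 ligands 5 had a TGFB1 site and 1 a vehicle site. The strongest were inside TGFB2 (50 reads, fold enrichment 22.9), 6.50 kb outside TGFB1 (39 reads) and inside BMP7 (18 reads). Of 9 genes listed under the latent complex and its activation, by family or role, 6 had a site and none had one in vehicle. They were led by LTBP2, the integrin subunit ITGB6 (43 reads) and ITGB8 (23 reads). Of 12 receptors 7 had a site and none had one in vehicle. TGFBR2, the type II receptor, had 4 with a strongest of 25 reads, BMPR2 had 2 with a strongest of 42, and BMPR1B had 1 of 17.

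Among the signalling SMADs and their anchors only SMAD3 had a site, 1 of 7 genes, but it had 7 sites. The strongest held 31 reads inside the gene (chr15:67150098-67150849). The inhibitors of the pathway differed from this, with 10 of 12 genes bound after TGFB1 and 4 in vehicle. By −log10 p SKIL was strongest (117, 101 reads), followed by SKI (a co-repressor, 50.4, 62 reads) and PMEPA1 (an inhibitor that sequesters SMADs, 48.2, 66 reads). SMAD6, the other inhibitory SMAD, had 41 reads 0.031 kb outside the gene. The vehicle list held 23 reads at SMAD6, 23 at PMEPA1 and 13 at SMAD7 at its strongest site within reach of the gene. Early target genes had 12 of 16 bound, with 4 in vehicle, and 43 sites in all. CCN2, the connective tissue growth factor gene, had 1 site of 17 reads, and CDKN1A, the cell cycle inhibitor p21, had 1 of 23. Neither was among the strongest of this list, in which TGFBI reached 71 reads.

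Effector groups came next. Transcription factors of the epithelial-mesenchymal transition had 6 of 8 genes bound and none in vehicle. PRRX1 had 47 reads, SNAI1 30 and TWIST2 22 at their strongest sites. Actin and adhesion genes had 16 of 22 bound, with 1 in vehicle, led by PXN (paxillin, 76 reads), VIM (vimentin, 58 reads) and LMNA (55 reads). Matrix genes had 11 of 23 bound, with 1 in vehicle, led by MMP2 (a gelatinase, 88 reads), COL4A2 (a basement membrane collagen, 48 reads) and COL1A1 (41 reads). The AP-1 family had 10 of 14 bound and 2 in vehicle, led by JUNB (72 reads), FOSL1 (43 reads) and JUND (36 reads). Those sites lay 7.36, 1.28 and 4.65 kb outside the named genes. The JUNB site was in the body of another gene, and the FOSL1 and JUND sites were at the start of another gene.

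The melanoma programmes were also bound. Pigment lineage genes had 11 of 18 bound and none in vehicle, but with at most 2 sites a gene. GPNMB, a melanosomal glycoprotein, had 30 reads, OCA2 22 and MITF 19. Genes of dedifferentiated melanoma had 8 of 12 bound, with 4 in vehicle. AXL had 168 reads and NES (nestin, an intermediate filament) had 100 reads at a site 6.68 kb outside the gene. That site lay nearer to another gene, BCAN, at 2.56 kb.

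Among the groups included for comparison, housekeeping genes had 9 of 16 bound (56.3%) and 5 in vehicle, above the share over all genes in both lists. At GAPDH the strongest site was shared, with 36 reads with TGFB1, and the vehicle list held 49 reads at its strongest site there. EEF1A1 had 21 and 24. Interferon and antigen presentation genes had 5 of 22 bound (22.7%) and none in vehicle, and marker genes of other cell types 4 of 18 (22.2%) and none. Both shares were close to the 28.2% of all genes, in short lists whose median gene lengths were 8.83 and 8.06 kb. No difference from all genes is read from them. Of the interferon and antigen presentation genes, CIITA, the class II transactivator, had 47 reads and the other 4 had at most 17. The sites of those 4 lay 5.20 to 9.24 kb outside the gene, in or at the start of another gene. The strongest sites at markers of other cell types were at PTPRC (29 reads), NEUROD1 (34 reads) and PECAM1 (33 reads). The highest shares were those of the pathway's inhibitors (83.3%), the transition factors and the early targets (75.0% each). In vehicle, housekeeping genes (5 of 16) had about the same share as the inhibitors (4 of 12).

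**Figure D5:**
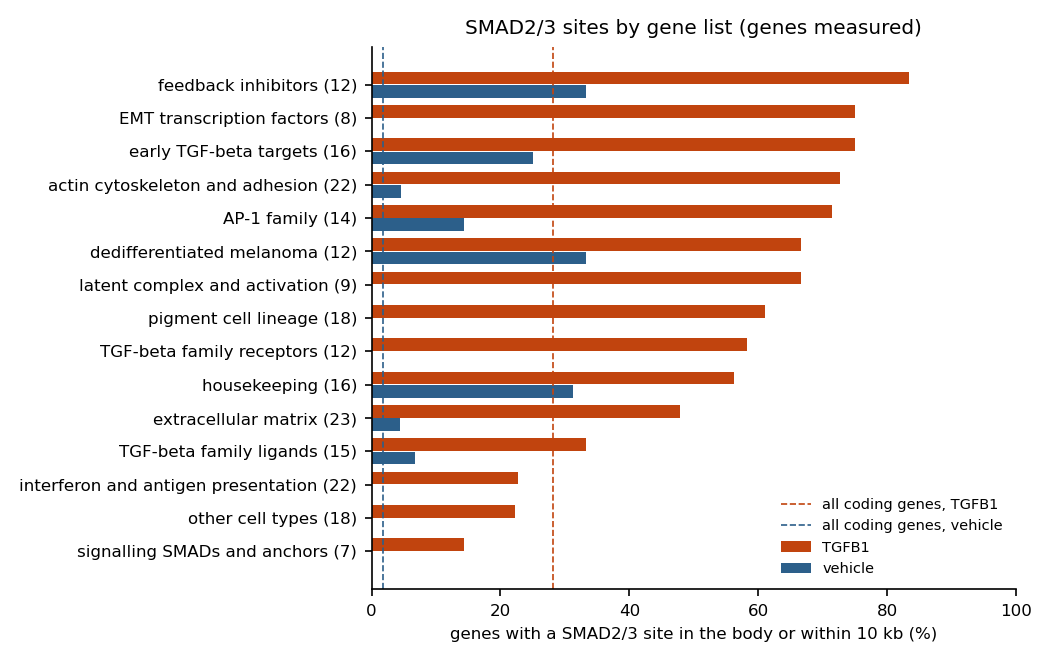
Bars give the percent of genes in each list with a SMAD2/3 site in the body or within 10 kb, TGFB1 above vehicle, with the number of genes in brackets. Dashed lines show all protein-coding genes (28.2% and 1.78%). Interferon genes (22.7%) and other cell types (22.2%) lie close to the TGFB1 line.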

How the data were processed

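SMAD2/3 was immunoprecipitated in 1 vehicle and 1 TGFB1 library. Per the submitters' processing notes, Bowtie, MACS2 (version 2.0) and GRCh38 were used. The fold enrichment ratio and the −log10 p and −log10 q of each peak are the authors' deposited values. The control library and the handling of duplicates are not given in the sources used here. The lowest −log10 q was 1.31 and 1.43, near a q threshold of 0.05.

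Reads and background at a summit were solved from fold enrichment and −log10 p, assuming 1 pseudocount in the former. The lowest background per base of shortest site gave a TGFB1 depth 1.09 times that of vehicle, assuming the same genome size. Sites overlapped at 1 bp or more. Genes were 19938 protein-coding genes of RefSeq. Starts were annotated for 15811 of them, and for 4127 either end stood in. Software was scipy 1.17.1, numpy 2.4.6, pandas 2.3.3 and matplotlib 3.10.9 under Python 3.11.15. Overlap, clustering and read recovery were tested on simulated data.

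The members and the 15 gene lists (224 entries, all matched) were chosen with earlier results of these data known. Named sites and genes are the strongest TGFB1-only sites by −log10 p in each location, the clusters and genes with most sites, up to 3 genes of each list, the strongest shared and vehicle-only acetylated sites, and up to 6 promoters. Some genes that this rule names are not reported here, and others were named after their values were seen, among them the shared sites and clusters set out as examples. The division of shared sites into kinds was also made after the data were seen. Alternatives were stricter −log10 q and fold, other overlap rules and windows, and removal of gene-free stretches.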

Additional observations from a re-analysis of the deposited data

Results flagged for a closer look

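SMAD2/3 peaks were also called on contigs and other sequences outside chromosomes 1 to 22 and X, which no comparison above used. There were 104 such sites in the TGFB1 list and 72 in the vehicle list. They drew attention because this sequence lies outside the main measurement and the TGFB1 number is above the vehicle number. The 2 lists are closer here than on the main chromosomes, where they held 11302 and 1175 sites.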

How the results depend on the processing

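No paired analysis was possible because each treatment had 1 library. Of the values under alternatives, 16 stayed within 1.5 times the reported count or inside the interval of the reported share, and 26 did not. The cause was not tested unless the construction shows it. A fold enrichment of at least 6 left 5086 TGFB1 and 306 vehicle sites, 93 clusters and 2467 genes with a TGFB1 site and no vehicle site, with 1.71% of TGFB1 and 27.8% of vehicle sites shared and 10.9% of TGFB1-only sites at gene starts. A −log10 q of at least 5 gave 234 clusters, 41.1% of vehicle sites shared and 17.4% at starts. Without gene-free stretches 463 vehicle sites were left, and 3.39% of TGFB1 and 78.6% of vehicle sites were shared, against 5.20% and 48.5% with them. Requiring 50% of both peaks gave 3.99% and 38.4%, and equal list lengths 15.3% and 15.0%. Widening the start window to 2.5 kb gave 25.9% at starts, against 22.2%. Clusters numbered 216 at 5 kb and 688 at 25 kb, and genes 3493 with no window and 8854 with 50 kb, fewer or more by construction. The following alternatives, unlike those above, were chosen after the data were seen. Without structural RNA genes and high background, 757 vehicle sites were left and 2.95% of TGFB1 and 41.6% of vehicle sites were shared. With annotated starts only, 18.5% lay at starts. The median TGFB1 summit held 17 reads. No setting varied depth, and a site absent from the vehicle list may lie under its calling threshold.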

Other observations

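Of 1911 microRNA genes 310 (16.2%) had a TGFB1 site within 10 kb and 18 had a vehicle site. Among protein-coding genes 5632 (28.2%) had a TGFB1 site and 354 (1.78%) a vehicle site in the body or that near. Coding genes, with a median length of 24.2 kb, offer more room, so these shares are not matched. Nothing particular to microRNA genes is read from the counts. Of the microRNA genes 28 had 3 or more TGFB1 sites. The ones described here were chosen after their values had been seen. Their mature sequences are from RefSeq on GRCh38.p14, 5′ to 3′, with the seed (bases 2 to 8) in capitals.
hsa-miR-21-5p: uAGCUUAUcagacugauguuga
hsa-miR-22-3p: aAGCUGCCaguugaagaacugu
hsa-miR-23a-3p: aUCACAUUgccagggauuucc
hsa-miR-27a-3p: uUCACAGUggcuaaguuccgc
hsa-miR-24-3p: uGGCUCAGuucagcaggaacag
No 2 of these share a seed. MIR21, which lies at the end of VMP1, had 5 TGFB1 sites within 10 kb and no vehicle site, and the nearest summit held 14 reads at 1.26 kb. MIR22 had 3 and none, with 21 reads at 0.698 kb. MIR23A, MIR27A and MIR24-2 lie side by side on chromosome 19 and shared the same 4 sites, none in vehicle, with 42 reads at the nearest. That site opens a cluster of 10 TGFB1-only sites (chr19:13836923-13862491) reaching to NANOS3, in which every site lay on vehicle H3K27ac and on JUNB, and the strongest held 137 reads.

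By 1 Mb intervals, the TGFB1 list covered 2271 intervals with a median of 4 sites, and the vehicle list 329 with a median of 1. After the ribosomal interval of chromosome 21, the most were 34 TGFB1 sites and 4 vehicle sites on chromosome 11 from 65000001 to 66000000, which holds LTBP3, FOSL1 and AP5B1. Neighbouring intervals of chromosome 20 from 50000001 to 52000000 held 23 and 26 TGFB1 sites and none in vehicle. The interval of chromosome 19 that holds the microRNA cluster had 24 and none, and that of chromosome 1 with LMNA had 23 and 1.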
